A study of Mus musculus with 19 samples.

Results

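Collagens and laminins are the structural proteins of the extracellular matrix. The genes described here are the 54 of 24062 listed genes whose names follow the collagen or laminin pattern (Col, a number, a, a number, or Lama, Lamb or Lamc with a number), with Col8a1 left out as a choroid plexus gene. They comprise 43 collagens and 11 laminins, and fall into 11 fibrillar collagens, 17 basement membrane genes (6 type IV collagens and 11 laminins) and 26 other collagens. RNA came from hippocampal neurons taken at embryonic day 17 from ICR mice and kept for 10 days in vitro, with 3 libraries in each of 3 groups. The neurons were left untreated, were exposed to tetrodotoxin (TTX), a toxin that closes voltage-gated sodium channels and so silences firing, for a time that the sources used here do not state, or were exposed for 3 h to bicuculline, an antagonist of GABA-A receptors, with 4-aminopyridine, which blocks potassium channels (Bic/4AP). No group carries an engineered allele per the labels. The same kind of culture gave 4 peak lists of H3K27ac, a histone mark of active promoters and enhancers, 2 untreated and 2 with Bic/4AP, and 2 untreated lists of H3K4me1, a mark of enhancers, all from ICR mice. It also gave 1 bisulfite library of each of the 3 treatments. Those cultures were C57BL/6, a different strain from the ICR mice behind the RNA.

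A collagen is a trimer of chains wound into a triple helix. Fibrillar collagens (types I, II, III, V, XI, XXIV and XXVII) assemble into fibres and are made mainly by fibroblasts and cartilage cells. Basement membranes are thin sheets built from a laminin network, each laminin being a trimer of an alpha, a beta and a gamma chain, and a type IV collagen network. In brain they surround vessels, underlie the meninges and carry the choroid plexus epithelium. The other collagens include beaded-filament type VI, short-chain types VIII and X, fibril-associated types such as IX, XII, XIV, XVI and XIX, the multiplexins XV and XVIII, which release antiangiogenic fragments, and membrane-spanning types such as XIII, XVII, XXIII and XXV.

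Levels are deposited RPKM (reads scaled by gene length and library size), so they can be compared between genes. Recovered library sizes, from the steps of the RPKM values, were 9.57 to 12.5 M reads with TTX, 5.55 to 9.84 M untreated and 4.26 to 4.51 M with Bic/4AP, so low values are least precise with Bic/4AP. Of the 54 genes, 40 reached 1 RPKM in at least 3 libraries and were tested: 8 fibrillar, 13 basement membrane and 19 other. Passing the filter through 1 high group favours a difference, so counts over the 40 do not stand for all 54. Their values rested on 1 to 2123 reads, the smallest whole numbers the steps allow, and 39 of 360 values rested on fewer than 10 reads. Changes are given as log2 changes of RPKM + 1 relative to the median of all 14801 genes tested (-0.12 for Bic/4AP and 0.13 for TTX against untreated, -0.33 for Bic/4AP against TTX), because other scalings moved that median by more than 0.1. Calls are limma's at a Benjamini-Hochberg adjusted p under 0.05 over all 14801 genes. The calls, p-values and SEs belong to the log2 change before the median was subtracted, tested against 0. Nothing in the labels states that replicate libraries are independent cultures; the p-values therefore reflect only their spread, which may be technical. In bulk RNA, fewer cells of a type and less RNA per cell cannot be told apart.

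The cultures expressed the labelled neuron markers at a summed 653 to 724 RPKM with TTX, 683 to 817 untreated and 1090 to 1120 with Bic/4AP over 10 genes, none of them at 0. The untreated libraries stood apart in markers of another tissue. The 12 choroid plexus markers summed to 479 to 716 RPKM untreated, against 23 to 31 with TTX and 39.1 to 44.7 with Bic/4AP, and 12 of 12 were lower than untreated in both treated groups under all 3 scalings. In TTX 7 of the 12 and in Bic/4AP 5 averaged under 1 RPKM, and none was at 0 in a whole group. The 119 listed small nucleolar and Cajal body RNAs, which carry no poly(A) tail, likewise summed to 1408 to 2031 RPKM untreated, against 252 to 325 with TTX and 248 to 316 with Bic/4AP, in libraries made from poly(A) RNA. Every comparison with untreated neurons below includes this difference.

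Summed over each class, collagen and laminin RNA was highest in untreated neurons. The 26 other collagens summed to 137, 136 and 160 RPKM untreated, against 61.25, 60.6 and 53.6 with TTX and 73.4, 68.95 and 72.5 with Bic/4AP. The 17 basement membrane genes summed to 114, 108 and 132 RPKM untreated, 86.1, 88.2 and 72.4 with TTX and 47.6, 52.3 and 46.7 with Bic/4AP. The 11 fibrillar collagens differed least, at 32.8, 32.7 and 38.4 RPKM untreated, 30.9, 31.1 and 24.5 with TTX and 18.3, 17.9 and 18.5 with Bic/4AP. In all 3 classes the 3 untreated libraries lay above every treated library. Among genes, 23 of the 40 tested, or 57.5%, had their highest mean in untreated neurons, where 25.3% of all genes tested did. TTX held the highest mean for 13 (32.5%, against 46.6% of all genes) and Bic/4AP for 4 (10%, against 28.1%).

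**Figure D1:**
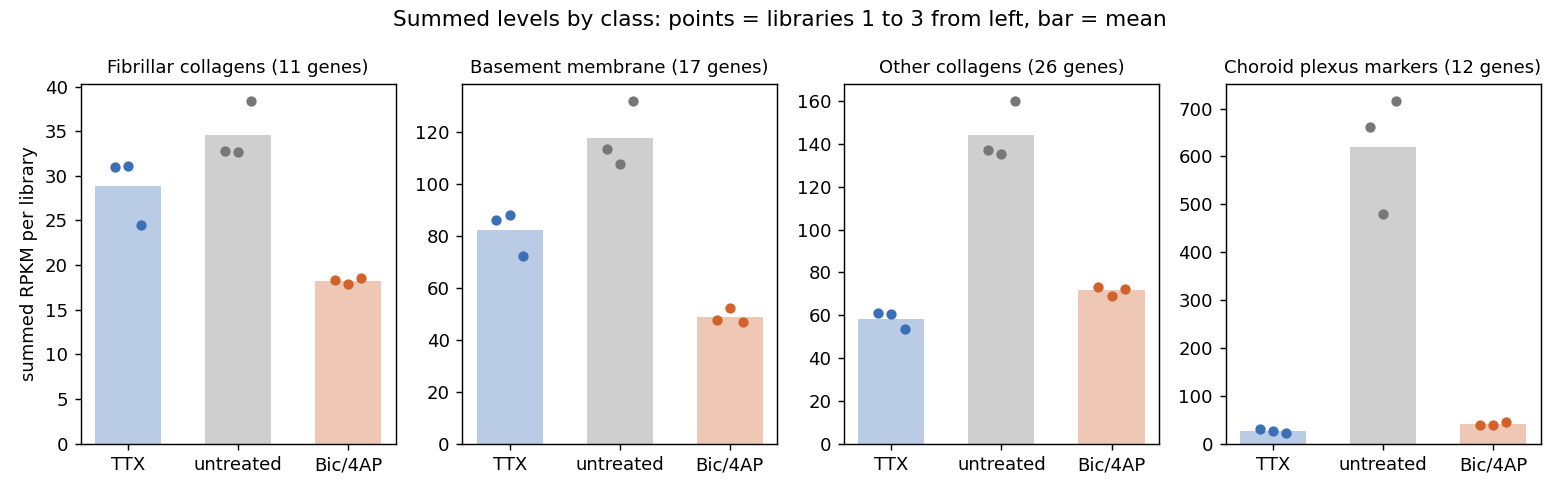
Summed RPKM per library (points, libraries 1 to 3 from the left) and group mean (bars) for the 3 classes and for 12 choroid plexus marker genes, with TTX, untreated and with Bic/4AP. The untreated points are the highest in every panel, by more in the marker panel (479 to 716 RPKM untreated, under 45 RPKM in every treated library) than in the fibrillar panel.

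Promoter sequences of 4 of the genes are shown because the methylation data below bear on them and because they stand for different patterns. Col8a2 and Col6a1 were highest in untreated neurons, Col10a1 with Bic/4AP, and Col3a1 was higher in both treated groups than untreated. They were chosen after their values were seen. Each is the stretch of 250 bases just before the RefSeq start site on the GRCm38.p6 build (mm10), 5′ to 3′ on the strand of the gene, with CpG sites, where methylation is measured, in capitals. The stretches are chr4:126286544-126286793 (plus strand), chr10:76726045-76726294 (minus strand), chr10:34389731-34389980 (plus strand) and chr1:45311288-45311537 (plus strand).
Col8a2: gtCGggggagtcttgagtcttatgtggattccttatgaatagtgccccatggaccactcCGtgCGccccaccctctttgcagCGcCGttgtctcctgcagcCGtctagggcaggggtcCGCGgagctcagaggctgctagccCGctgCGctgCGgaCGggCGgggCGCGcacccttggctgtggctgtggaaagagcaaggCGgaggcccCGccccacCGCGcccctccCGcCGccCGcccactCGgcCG
Col6a1: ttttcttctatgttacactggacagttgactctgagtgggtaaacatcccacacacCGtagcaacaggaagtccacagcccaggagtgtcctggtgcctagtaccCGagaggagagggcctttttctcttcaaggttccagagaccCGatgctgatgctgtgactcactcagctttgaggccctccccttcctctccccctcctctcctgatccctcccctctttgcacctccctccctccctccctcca
Col10a1: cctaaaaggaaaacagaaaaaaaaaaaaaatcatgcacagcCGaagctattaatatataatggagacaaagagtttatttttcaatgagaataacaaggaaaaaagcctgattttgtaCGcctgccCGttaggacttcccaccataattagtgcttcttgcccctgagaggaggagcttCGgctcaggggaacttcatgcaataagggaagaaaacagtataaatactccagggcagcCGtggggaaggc
Col3a1: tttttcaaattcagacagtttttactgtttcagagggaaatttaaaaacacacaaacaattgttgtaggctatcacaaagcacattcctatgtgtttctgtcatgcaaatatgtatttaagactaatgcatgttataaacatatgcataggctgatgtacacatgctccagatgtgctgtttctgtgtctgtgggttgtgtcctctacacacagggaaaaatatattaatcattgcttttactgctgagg
The Col8a2 stretch holds 24 CpGs, the Col6a1 stretch 3, the Col10a1 stretch 5 and the Col3a1 stretch 0. Of the 54 genes, 39 had a RefSeq promoter entry, with a median of 10 CpGs in this window, against 11 over 16781 genes. A search of the 250 bases on both strands found TATAAA in 5 of the 39 (13.2% of all genes), namely Col10a1, Col3a1, Col11a2, Col13a1 and Col17a1. The AP-1 motif TGANTCA was in 1, Col6a1 (7.36% of all genes), GGGCGG in 22 (46.6%), Col8a2 included, and CCAAT in 14 (39.2%).

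The type IV collagen genes Col4a1 and Col4a2, whose chains form the most widespread type IV network, were the most highly expressed members in untreated neurons. Col4a2 measured 36.9, 29.8 and 42.3 RPKM untreated, 11.7, 11.8 and 9.23 with TTX and 6.81, 6.88 and 5.38 with Bic/4AP. Col4a1 measured 27.2, 25 and 31.8 RPKM untreated, 17.9, 19 and 16.8 with TTX and 11.2, 13.3 and 9.96 with Bic/4AP. In both genes the 3 groups did not overlap, with untreated highest, TTX between and Bic/4AP lowest. Their start sites lie 21 bases apart on chromosome 8 and point away from each other (gene spans chr8:11198423-11312889 and chr8:11312805-11449287), and the sources used here do not state whether counting used the strand, so reads over their shared start cannot be assigned with certainty.

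Laminin chains did not share 1 order of groups. Lamb1, the beta chain of early embryonic laminins, measured 17.4, 17.4 and 19.8 RPKM untreated, 21, 20.5 and 19.8 with TTX and 7.46, 9.01 and 8.26 with Bic/4AP, so the TTX and untreated libraries were close and all Bic/4AP libraries lower. Lamc1, the gamma chain common to most laminins, measured 13.4, 14.3 and 16.1 RPKM untreated, 11.5, 12.2 and 9.11 with TTX and 11.4, 11.9 and 11.4 with Bic/4AP, a range of under 2 times over all 9 libraries. The remaining laminins averaged under 5 RPKM in every group. Lama5, the alpha chain of many adult vascular and epithelial basement membranes, averaged 4.16 ± 0.571 RPKM untreated (SD, n = 3 libraries, as throughout), 2.5 ± 0.387 with TTX and 0.644 ± 0.172 with Bic/4AP. Lamb2, the beta chain of synaptic and vascular laminins, averaged 3.1 ± 0.0833, 3.62 ± 0.821 and 0.782 ± 0.143 in the same order. Lama2, the alpha chain of muscle, nerve and pericyte basement membranes, averaged 2.28 ± 0.462, 4.16 ± 0.549 and 2.35 ± 0.139, and was highest with TTX.

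Of the fibrillar collagens, 4 averaged 5 RPKM or more in a group. Col1a1, the major chain of type I collagen and a product of fibroblasts and osteoblasts, measured 1.81, 2.71 and 1.45 RPKM untreated, 11.7, 12.6 and 10.5 with TTX and 4.66, 4.87 and 3.83 with Bic/4AP, with TTX highest, Bic/4AP between and no overlap. Its partner chain Col1a2 averaged 2.71 ± 0.296 RPKM untreated, 2.75 ± 0.501 with TTX and 1.65 ± 0.0485 with Bic/4AP, so the chains of type I collagen did not have the same order of groups. Col11a1, which with type V collagens seeds the fibres, measured 6.9, 6.24 and 8.41 RPKM untreated, 1.55, 1.25 and 1.09 with TTX and 1.31, 0.958 and 2.82 with Bic/4AP. All treated libraries of Col11a1 lay below the untreated ones, and with Bic/4AP library 3 was more than 2 times the others. Col5a1 measured 7.58, 7.14 and 9.27 RPKM untreated, 4.8, 4.32 and 3.33 with TTX and 2.08, 2.26 and 2.22 with Bic/4AP, and its 3 groups did not overlap. Col5a2 measured 6.87, 7.4 and 7.98 RPKM untreated, 5.81, 5.47 and 4.51 with TTX and 4.38, 4.71 and 5.3 with Bic/4AP, with both treated groups below untreated.

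Among the other collagens, Col9a3 and Col8a2 were those with more than 10 RPKM in every untreated library and less than 1 RPKM in every treated one. Col9a3, a chain of the fibril-associated type IX collagen of cartilage, measured 18.5, 14.9 and 23.1 RPKM untreated, 0.328, 0.275 and 0.214 with TTX and 0.327, 0.0646 and 0.546 with Bic/4AP. Col8a2, a short-chain collagen of the corneal endothelial basement membrane, measured 14.9, 11.9 and 18.1 RPKM untreated, 0.31, 0.253 and 0.0954 with TTX and 0.408, 0.151 and 0.426 with Bic/4AP. In the treated groups these values rest on few reads, 1 to 14 per library for Col9a3 and 3 to 17 for Col8a2, so no fold is given. Col6a1, a chain of the beaded filaments of type VI collagen, measured 18.4, 16.6 and 23.1 RPKM untreated, 3.1, 2.89 and 1.98 with TTX and 2, 2.03 and 1.28 with Bic/4AP, with all treated libraries below all untreated ones. Untreated library 2 was the lowest and library 3 the highest of the untreated libraries for Col9a3, Col8a2, Col6a1, Col4a1 and Col4a2. Some other genes that were highest untreated had library 1 lowest, as Col23a1 (4.98, 5.04 and 6.34 RPKM), Col5a2 (6.87, 7.4 and 7.98) and Col7a1 (1.56, 1.82 and 2.02). Library 2 had the lowest and library 3 the highest choroid plexus marker sum (479 and 716 RPKM). The part of these markers in the result was not tested.

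Further collagens that were highest in untreated neurons had lower levels. Col20a1 measured 6.99, 6.29 and 7.49 RPKM untreated, 1.08, 0.826 and 0.765 with TTX and 0.317, 0.468 and 0.33 with Bic/4AP. Col15a1, a multiplexin of basement membrane zones, measured 5.11, 4.62 and 6.16 RPKM untreated, 0.714, 0.571 and 0.486 with TTX and 0.0831, 0.0819 and 0.13 with Bic/4AP. Col23a1, a membrane-spanning collagen, measured 4.98, 5.04 and 6.34 RPKM untreated, 1.49, 1.15 and 0.821 with TTX and 2.07, 2.38 and 1.18 with Bic/4AP. For these 3 genes all treated libraries lay below all untreated ones, and Col15a1 with Bic/4AP rested on 2 or 3 reads per library.

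Col19a1, a fibril-associated collagen expressed by hippocampal interneurons, measured 18.2, 20.2 and 19.1 RPKM untreated, 8.49, 9.04 and 8.46 with TTX and 21.6, 20.6 and 20.2 with Bic/4AP. Col25a1, the membrane collagen also known as the Alzheimer amyloid plaque component CLAC, measured 16.5, 18.8 and 17.8 RPKM untreated, 11.7, 12 and 11.9 with TTX and 19.9, 18.5 and 18 with Bic/4AP. For both genes the TTX libraries lay below all others, and the untreated and Bic/4AP libraries overlapped. Col26a1 ran the other way, at 5.45, 6.71 and 4.96 RPKM untreated, 13.6, 13 and 12.3 with TTX and 6.37, 5.72 and 4.77 with Bic/4AP, with TTX above all other libraries. Col18a1, whose C-terminal fragment is endostatin, measured 3.4, 4.29 and 3.61 RPKM untreated, 6.51, 6.99 and 4.73 with TTX and 3.05, 3.01 and 3.5 with Bic/4AP, again with TTX highest. Col10a1, the short-chain collagen of hypertrophic cartilage, was the member with its highest level in Bic/4AP by the widest margin, at 0.624, 1.03 and 0.891 RPKM untreated, 1.14, 1.02 and 1.02 with TTX and 5.44, 5.01 and 7.44 with Bic/4AP. Its 3 Bic/4AP libraries lay at 5.01 RPKM or above and the other 6 at 1.14 or below.

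**Figure D2:**
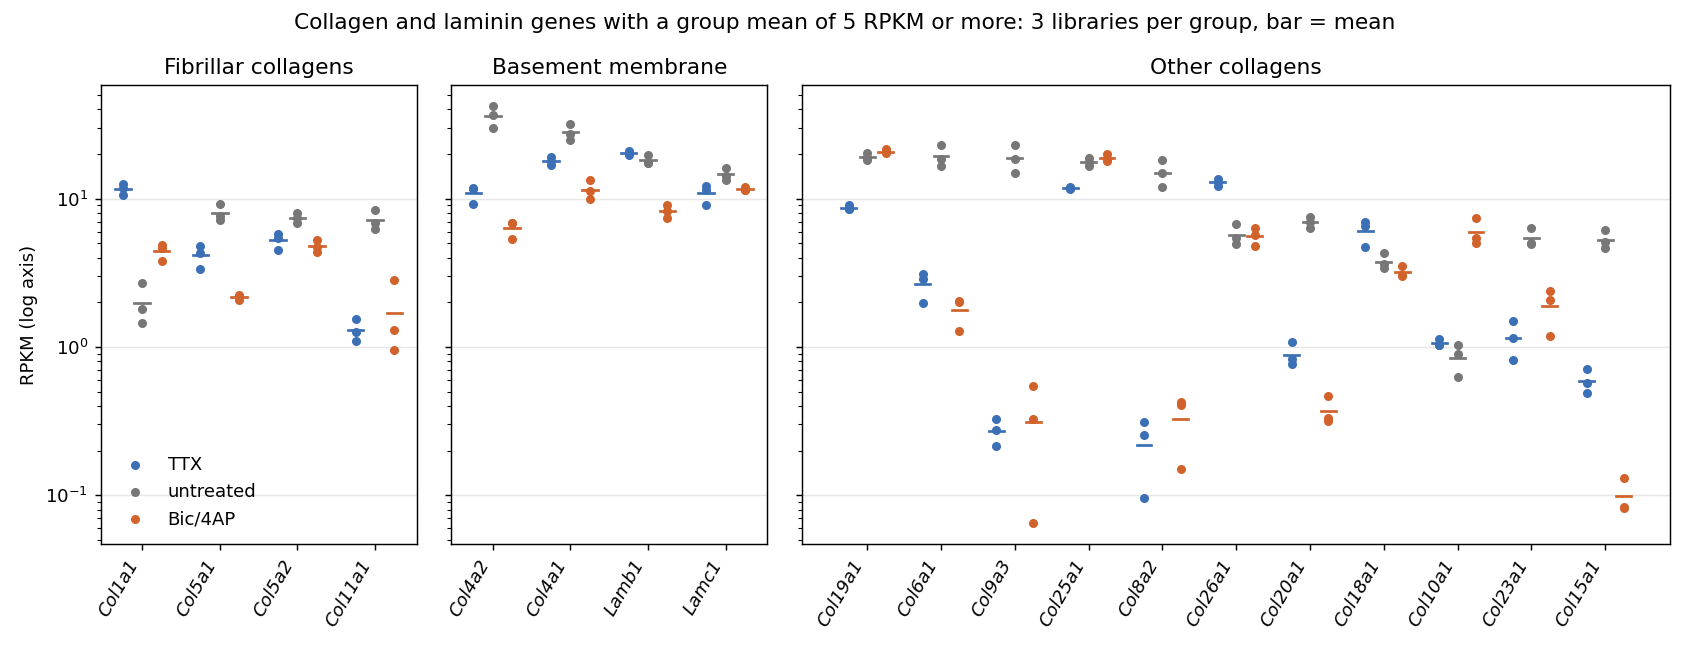
RPKM on a log axis of the 19 genes with a group mean of 5 RPKM or more, in 3 classes; points are libraries, bars are group means, and the colours are TTX, untreated and Bic/4AP. Col9a3 and Col8a2 have means of 18.8 and 14.98 RPKM untreated and under 0.4 in both treated groups, while Col10a1 is highest with Bic/4AP and Col1a1 and Col26a1 with TTX.

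The comparison of TTX with untreated neurons sets silenced against untreated cultures. It also carries the choroid plexus and small RNA differences given above. Of the tested genes, 21 of 32 collagens and 3 of 8 laminins were lower with TTX, and 4 collagens (Col1a1, Col3a1, Col26a1 and Col18a1) and 3 laminins were higher. Of 40 tested genes 31 were called (64.1% of all genes tested were), of which 24 fell (23.5% of all genes) and 7 rose (40.6%). The same 24 and 7 were called under all 3 scalings, where 21.8% and 28.7% of all genes were. The groups did not overlap for 25 lower genes (26.1% of all genes) and 8 higher ones (43.5%). The median relative log2 change over the 40 was -0.71, and 15 fell and 2 rose by a log2 change of 1 or more before the median was subtracted (6.58% and 6.09% of all genes). Some lower genes were under 1 RPKM in every treated library, so they passed the filter through the untreated group alone. That favours a fall. They were Col9a3, Col8a2, Col15a1, Col16a1, Col6a4, Col7a1, Col11a2, Col5a3, Col4a3, Col4a4 and Lama3. Lamc3, which rose, passed through the TTX group alone.

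By class, 5 of 8 fibrillar collagens fell with TTX and 2 rose, with a median relative log2 change of -0.69. Col11a2, the other main chain of type XI collagen, fell to 0.0712 ± 0.0437 from 2.98 ± 0.671 RPKM (relative log2 change -2.01 ± 0.15 (SE), limma adjusted p = 1.33e-06), on 2 to 8 reads per TTX library. Col11a1 fell by a similar amount (-1.96, adjusted p = 3.34e-05), and Col5a1 (-0.94), Col5a3 (-0.81) and Col5a2 (-0.56) fell by less. The call of Col5a2 was lost without TTX library 3 (log2 change -0.34 before the median was subtracted, adjusted p = 0.0543). Col1a1 rose to 11.6 ± 1.05 from 1.99 ± 0.65 RPKM (1.97 ± 0.17 (SE), adjusted p = 1.74e-06), the largest rise of the 40 genes. Col3a1, the chain of type III collagen, rose to 2.93 ± 0.671 from 1.23 ± 0.162 (0.67, adjusted p = 0.00161). Of 6 mural cell markers tested, 4 rose and 0 fell with TTX (40.6% and 23.5% of all genes). Rgs5, at 7.97 ± 0.6 against 11.1 ± 1.39 RPKM untreated, and Vtn did not pass. The list of 12 summed to 39.1 to 49.95 RPKM with TTX against 24.5 to 31.3 untreated, with no marker at 0. Markers of other cells rose too: 7 of 10 astrocyte markers rose and 1 fell, and 4 of 6 oligodendrocyte lineage markers rose and 2 fell. The 14 fibroblast and meningeal markers summed to 37.3 to 50.3 with TTX against 85.8 to 105 untreated, where 47.8 of the mean came from Ptgds, a gene that choroid plexus and meninges both express. The part of these markers in the result was not tested.

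Basement membrane genes divided by chain. Of 13 tested, 7 fell and 3 rose with TTX (median relative log2 change -0.53). All type IV chains tested other than Col4a5 fell: Col4a2 (-1.77 ± 0.14 (SE), adjusted p = 2.19e-06), Col4a3 (-1.43), Col4a4 (-1.06) and Col4a1 (-0.74, adjusted p = 0.000396). Col4a5 was at 3.31 ± 0.594 against 2.82 ± 0.516 RPKM (adjusted p = 0.401). Col4a3 and Col4a4, chains of the specialised network of kidney and other organs, also lie head to head with overlapping spans on chromosome 1, and Col4a3 with TTX rested on 2 to 4 reads per library. Among 8 laminins, Lama3 (-0.89), Lama5 (-0.69) and Lamc1 (-0.53) fell, and Lamc3 (0.78, adjusted p = 0.00033), Lama2 (0.53) and Lama1 (0.43) rose. Lamc3 averaged 2.21 ± 0.522 RPKM with TTX and 0.695 ± 0.0677 untreated. Lamb1 and Lamb2 did not pass (adjusted p = 0.112 and 0.405); Lamb1 had a log2 change of 0.16 as deposited that became -0.065 with quantile and -0.15 with loess normalization, and without untreated library 3 it was called higher (0.22, adjusted p = 0.047). Endothelial markers summed to 22.5 to 24.95 RPKM with TTX against 15.98 to 17.8 untreated, with none of 12 at 0. Of the mean sums, 13.9 RPKM with TTX and 4.86 untreated came from 1 marker, Egfl7. Of 5 tested, 3 rose and 1, Emcn, fell (40.6% and 23.5% of all genes), and their part was not tested.

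The other collagens held the largest falls with TTX. Of 19 tested, 12 fell, 2 rose and 5 did not pass, with a median relative log2 change of -1.28. Col9a3 (-4.07 ± 0.19 (SE), adjusted p = 4.32e-08) and Col8a2 (-3.83 ± 0.18 (SE), adjusted p = 4.23e-08) led, followed by Col6a1 (-2.61), Col20a1 (-2.20), Col15a1 (-2.11), Col16a1 (-2.02) and Col6a4 (-2.00). Col23a1 (-1.72), Col7a1 (-1.38), Col6a2 (-1.28), Col19a1 (-1.19, adjusted p = 4.44e-07) and Col25a1 (-0.67, adjusted p = 5.13e-05) also fell. Col19a1 was at 8.66 ± 0.329 against 19.1 ± 0.999 RPKM, the fall resting on the most reads of these genes. Col26a1 (0.93 ± 0.13 (SE), adjusted p = 3.44e-05) and Col18a1 (0.43) rose, and the call of Col18a1 was lost without TTX library 2 (log2 0.46 before the median was subtracted, adjusted p = 0.0507). The choroid plexus markers fell with this class, as given above. Of 10 neuron markers 6 fell with TTX (5 under all 3 scalings) and 3 rose (23.5% and 40.6% of all genes), with a median relative log2 change of -0.45. The part of both marker lists in the result was not tested.

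**Figure D3:**
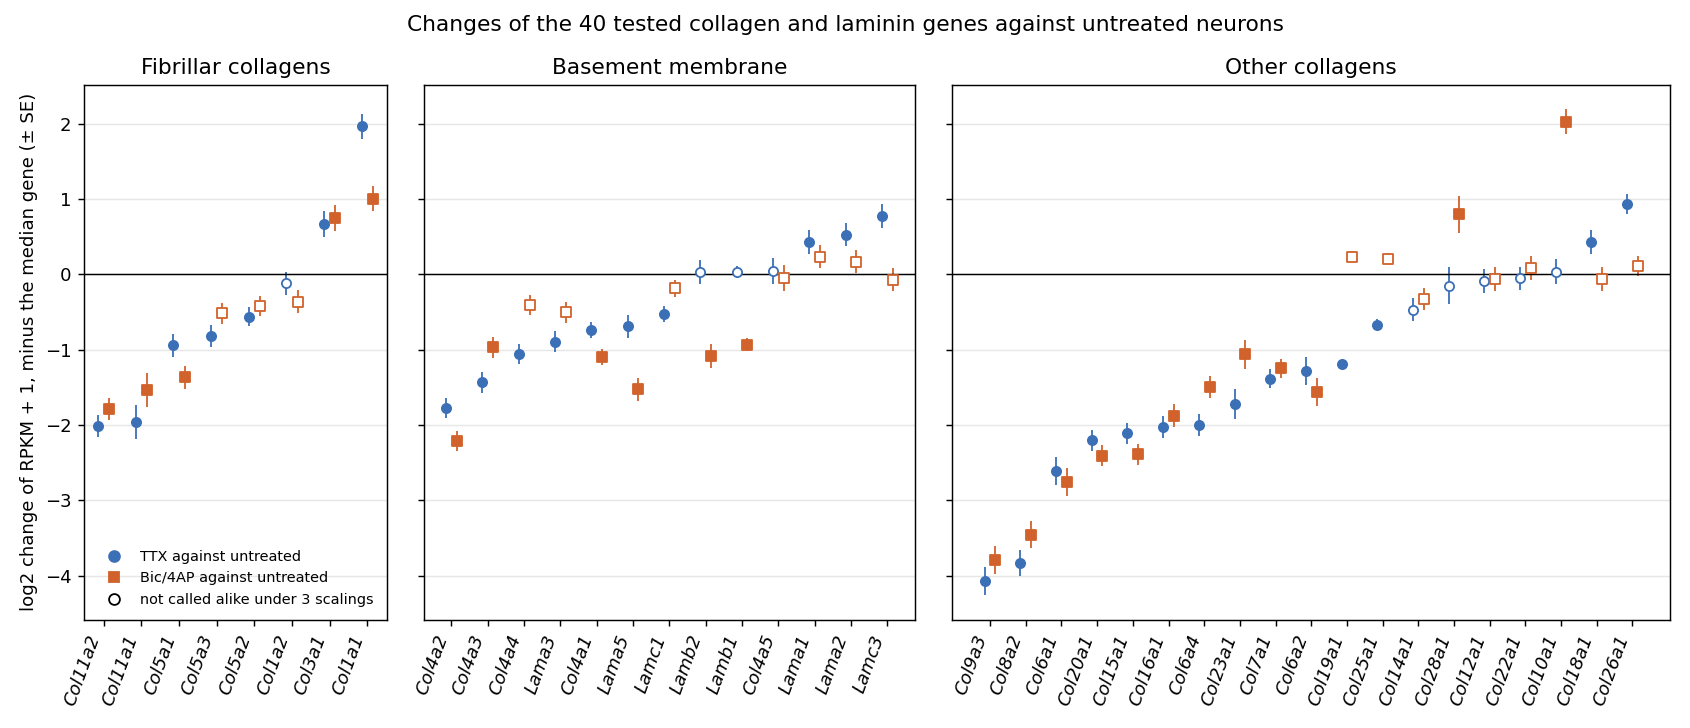
Log2 change of RPKM + 1 minus that of the median gene (points, with SE) for the 40 tested genes in TTX (circles) and Bic/4AP (squares) against the same untreated libraries; filled points were called in the same direction under 3 scalings. Col9a3, Col8a2 and Col6a1 are lowest in both comparisons, and Col1a1 (1.97) with TTX and Col10a1 (2.03) with Bic/4AP are the highest.

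The comparison of Bic/4AP with untreated neurons sets 3 h of excitation against untreated cultures, with the same untreated libraries as the comparison above. It carries the same choroid plexus and small RNA differences. Most basement membrane genes and other collagens were lower, and Col10a1, Col1a1, Col3a1 and Col28a1 were higher. Of 40 tested genes 30 were called (72.1% of all genes tested were), of which 26 fell (42.5% of all genes) and 4 rose (29.6%). Under all 3 scalings 19 fell and 4 rose, where 27.8% and 21.6% of all genes did. The split depended on scaling, with 14 up and 19 down after quantile and 11 up and 19 down after loess normalization. The groups did not overlap for 27 lower and 3 higher genes (42.7% and 28.6% of all genes), and 19 fell and 1 rose by a log2 change of 1 or more as deposited (17.7% and 3.31% of all genes). The median relative log2 change over the 40 was -0.51. The genes named for TTX that passed the filter through the untreated group alone were called lower here too.

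All 8 tested fibrillar collagens were called with Bic/4AP, 6 lower and 2 higher, of which 3 and 2 held under all 3 scalings (median relative log2 change -0.47). The 3 were Col11a2 (-1.78 ± 0.15 (SE), adjusted p = 2.75e-07), Col11a1 (-1.53) and Col5a1 (-1.37). Col5a2 (-0.42), Col1a2 (-0.36) and Col5a3 (-0.52) lost their calls under both other scalings. Col1a1 rose to 4.45 ± 0.551 from 1.99 ± 0.65 RPKM (1.01 ± 0.17 (SE), adjusted p = 0.00049) and Col3a1 to 2.45 ± 0.479 from 1.23 ± 0.162 (0.74, adjusted p = 0.00644). Fibroblast and meningeal markers rose for 4 and fell for 3 of 11 tested (29.6% and 42.5% of all genes). Dcn, which encodes decorin, was among the 4, at 22.4 ± 3.31 against 12.5 ± 2.06 RPKM untreated. The 3 that fell were Ptgds (1.02 against 47.8 RPKM untreated), Islr (2.86 against 8.13) and Ogn (3.02 against 7.87). The list of 14 summed to 51.1 to 54 RPKM with Bic/4AP and 85.8 to 105 untreated. Foxc2 and Dpt were at 0 in all 3 Bic/4AP libraries, but averaged only 0.12 and 0.0717 RPKM untreated. Mural markers rose for 2 and fell for 1 of 6 (29.6% and 42.5% of all genes). Mural sums were 24.5 to 36.8 RPKM with Bic/4AP and 24.5 to 31.3 untreated. The part of both marker lists in the rises was not tested.

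Of 13 basement membrane genes, 9 fell and 0 rose with Bic/4AP (median relative log2 change -0.51), and 6 falls held under all 3 scalings. Col4a2 fell most (-2.21 ± 0.14 (SE), adjusted p = 3.45e-08), to 6.36 ± 0.847 from 36.3 ± 6.27 RPKM, 5.71 times lower. Lama5 (-1.53, adjusted p = 1.64e-06), Col4a1 (-1.09), Lamb2 (-1.08, adjusted p = 3.08e-05), Col4a3 (-0.97) and Lamb1 (-0.93 ± 0.084 (SE), adjusted p = 3.69e-07) made up the 6. Lama3, Col4a4 and Lamc1 were called lower as deposited only. For Lamc1 the deposited log2 change of -0.31 became 0.062 after quantile and 0.11 after loess normalization, and the call was lost without untreated library 3 (-0.24, adjusted p = 0.0807) or Bic/4AP library 1 (-0.30, adjusted p = 0.0551). Lama1, Lama2, Lamc3 and Col4a5 did not pass. Endothelial markers summed to 10.98 to 11.6 RPKM with Bic/4AP against 15.98 to 17.8 untreated. Cldn5 was at 0 in all 3 Bic/4AP libraries, but averaged only 0.414 RPKM untreated. Of 5 endothelial markers tested only 1, Kdr, fell (42.5% of all genes), a call that did not hold under all 3 scalings. The part of these markers was not tested.

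Of 19 other collagens, 11 fell, 2 rose and 6 did not pass with Bic/4AP (median relative log2 change -1.06), and 10 falls held under all 3 scalings. Col9a3 (-3.79 ± 0.19 (SE), adjusted p = 1.08e-08), Col8a2 (-3.45 ± 0.18 (SE)), Col6a1 (-2.76), Col20a1 (-2.41) and Col15a1 (-2.39) fell most. Col16a1 (-1.88), Col6a2 (-1.56), Col6a4 (-1.5), Col7a1 (-1.25), the anchoring fibril collagen, and Col23a1 (-1.06) completed the 10. Col14a1 was called lower as deposited, but not after quantile (log2 change 0.047) or loess normalization (-0.057), nor without Bic/4AP library 1 (-0.34, adjusted p = 0.083). Choroid plexus markers fell beside these genes, 12 of 12 (42.5% of all genes), and their part was not tested.

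Col10a1 rose 7.04 times with Bic/4AP, to 5.96 ± 1.3 from 0.846 ± 0.204 RPKM (2.03 ± 0.16 (SE), adjusted p = 7.57e-07). It was the only one of the 40 genes that rose by a log2 change of 1 or more before the median was subtracted (Col1a1 was at 0.88 on that scale), and its call held in every alternative fit in which it was tested. Col28a1, a von Willebrand factor A domain collagen of peripheral nerve, measured 1.89, 2.25 and 0.947 RPKM untreated, 1.48, 1.64 and 1.69 with TTX and 2.98, 2.11 and 5.01 with Bic/4AP, with overlap between untreated and Bic/4AP (0.80, adjusted p = 0.0264). That call was lost without untreated library 3 (log2 0.46 as deposited, adjusted p = 0.117), without Bic/4AP library 3 (0.42, adjusted p = 0.116) and with no filter on low genes (0.68, adjusted p = 0.0513). These changes are before the median was subtracted, a scale on which the call rested on 0.68. Col19a1 and Col25a1 did not pass (adjusted p = 0.163 and 0.295) and were called higher after quantile (log2 0.26 and 0.27) and loess normalization (0.44 and 0.39).

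Bic/4AP against TTX compares excited with silenced neurons; the untreated libraries enter this contrast only through the shared estimate of the spread and the filter. A fit of the 6 libraries compared gave 7 higher genes in place of the 5 below, with Col4a3 (log2 0.21, adjusted p = 0.0255) and Col6a4 (0.25, adjusted p = 0.0257) added, and the same count of 16 lower. Of the tested genes, 6 of 8 laminins and 10 of 32 collagens were lower with Bic/4AP, and 5 collagens were higher. Of 40 tested genes 21 were called (76.8% of all genes tested were), of which 16 fell (53.1% of all genes) and 5 rose (23.7%). Under all 3 scalings 5 fell and 5 rose (30.8% and 19% of all genes). After quantile normalization 6 fell and 11 rose, and after loess normalization 5 fell and 14 rose, so the balance of the genes depends on the scaling. The median relative log2 change over the 40 was 0.18, and -0.15 before the median of all genes (-0.33) was subtracted. Genes near 0 RPKM in both groups barely move on this scale, and the subtraction alone can make them positive. Col11a2, at 0.0535 RPKM with Bic/4AP and 0.0712 with TTX, went from -0.024 to 0.31 this way. The groups did not overlap for 17 lower and 8 higher genes (55.9% and 25.6% of all genes), and by a log2 change of 1 or more as deposited 6 fell and 2 rose (20.4% and 3.74%).

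Of 8 tested laminins, 6 fell with Bic/4AP against TTX and 0 rose, with a median relative log2 change of -0.52, and 4 held under all 3 scalings. These were Lamb2 (-1.03 ± 0.16 (SE), adjusted p = 8.83e-06), Lamb1 (-0.88 ± 0.084 (SE), adjusted p = 1.14e-07), Lamc3 (-0.77, adjusted p = 3.94e-05) and Lama5 (-0.76, adjusted p = 4.43e-05). Lamb1 fell 2.48 times and Lamb2 4.63 times in RPKM, with no overlap of libraries. Lama2 and Lama1 were called lower as deposited only, and the call of Lama1 was lost without TTX library 1 (log2 -0.38, adjusted p = 0.0808), TTX library 2 (-0.42, adjusted p = 0.066) or Bic/4AP library 3 (-0.34, adjusted p = 0.0801). Lamc1 had a deposited log2 change of 0.086 (adjusted p = 0.48) and was called higher after quantile (0.72) and loess normalization (0.83). Col4a1 and Col4a2 were lower as deposited (relative log2 change -0.27 and -0.36), and after quantile normalization their log2 changes were -0.017 and 0.066, not called. Endothelial markers were lower for 4 of 5 tested, 2 of them under all 3 scalings, where 53.1% and 30.8% of all genes were. Mural markers were lower for 4 and higher for 1 of 6 (53.1% and 23.7% of all genes). The part of both marker lists was not tested.

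Among collagens, Col1a1 fell under all 3 scalings (-0.88, adjusted p = 3.32e-05). The 5 that rose did so under all 3 scalings: Col10a1 (2.07 ± 0.16 (SE), adjusted p = 1.30e-06), Col19a1 (1.5 ± 0.07 (SE), adjusted p = 4.31e-08), Col28a1 (1.03), Col25a1 (0.96, adjusted p = 6.13e-06) and Col4a4 (0.73). Col19a1 was at 20.8 ± 0.743 with Bic/4AP against 8.66 ± 0.329 RPKM with TTX, 2.40 times higher, and Col10a1 5.62 times higher. Col4a4 stayed under 1 RPKM in both groups, at 0.592 ± 0.101 with Bic/4AP and 0.205 ± 0.0692 with TTX (log2 0.40 before the median was subtracted). The call of Col28a1 was lost without TTX library 1 (log2 0.66 as deposited, adjusted p = 0.0584) or Bic/4AP library 3 (0.44, adjusted p = 0.0957), and that of Col4a4 without TTX library 3 (0.36, adjusted p = 0.0517). Neuron markers were higher for 7 of 10 and lower for 1 (23.7% and 53.1% of all genes), but under all 3 scalings for 1 and 0. Col26a1, Col18a1, Col20a1, Col15a1, Col6a2, Col5a1 and Col1a2 were called lower as deposited and lost the call under at least 1 other scaling.

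The values of the 14 genes under the filter, among them Lama4, Lamb3, Col27a1 and Col6a3, ran from 0 to 1.51 RPKM and rested on 0 to 110 reads. Some of them had their highest mean untreated, as Col27a1 at 0.875 ± 0.172 RPKM against 0.0712 ± 0.02 with TTX and 0.147 ± 0.0328 with Bic/4AP. Lama4, the alpha chain of endothelial laminins, averaged 0.749 ± 0.115, 1.22 ± 0.447 and 0.64 ± 0.0402 in the same order. Lamb3, a chain of the epithelial anchoring laminin, averaged 0.269 ± 0.101, 0.917 ± 0.118 and 0.23 ± 0.106. The third chain of type VI collagen, Col6a3, stayed between 0.482 and 0.82 RPKM in all 9 libraries, in contrast to Col6a1 and Col6a2.

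Enzymes that modify, cleave and crosslink collagen were measured as a list of 29 genes, 27 of them tested. With TTX 9 rose and 9 fell (40.6% and 23.5% of all genes), of which 6 and 9 held under all 3 scalings. With Bic/4AP 3 rose and 17 fell (29.6% and 42.5% of all genes), of which 3 and 10 held. Over these 27 the median relative log2 change was -0.17 with TTX, -0.53 with Bic/4AP and -0.24 in Bic/4AP against TTX. Bmp1, the procollagen C-proteinase, fell to 8.27 ± 0.59 RPKM with TTX and 2.42 ± 0.0201 with Bic/4AP from 38.5 ± 7.49, and Leprel2, a prolyl 3-hydroxylase gene, to 3.92 ± 0.623 and 1.12 ± 0.266 from 23.6 ± 4.63. Lox, the crosslinking enzyme lysyl oxidase, rose to 21.2 ± 1.6 and 21.7 ± 3.97 from 8.08 ± 2.48, and Loxl2, a related oxidase, to 13.2 ± 1.85 and 11.1 ± 0.823 from 5.43 ± 1.52. P4hb, the beta subunit of prolyl 4-hydroxylase, rose with TTX to 45.8 ± 1.33 from 34.4 ± 1.85. In Bic/4AP against TTX 20 of 27 fell (53.1% of all genes), 12 of them under all 3 scalings, with the lysyl hydroxylase gene Plod3 at 4.07 ± 0.247 against 13.4 ± 0.924 and the prolyl hydroxylase subunit P4ha2 at 1.62 ± 0.528 against 9.83 ± 0.641. Plod2, a lysyl hydroxylase that acts on telopeptides, was the 1 that rose, to 7.58 ± 0.711 from 5 ± 0.194.

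Of 15 tested partners in the basement membrane, 4 rose and 5 fell with TTX (40.6% and 23.5% of all genes), all under all 3 scalings. With Bic/4AP 4 rose and 10 fell (29.6% and 42.5% of all genes), of which 4 and 6 held. The median relative log2 change was 0.024 with TTX, -0.63 with Bic/4AP and -0.44 in Bic/4AP against TTX. Pxdn, the peroxidase that crosslinks type IV collagen, fell to 6.45 ± 0.998 RPKM with TTX and 2.14 ± 0.422 with Bic/4AP from 29.8 ± 5.37. Frem1 fell with TTX to 1.16 ± 0.205 from 5.71 ± 0.635, and Agrn, the synaptic organizer agrin, with Bic/4AP to 14.2 ± 0.226 from 38.7 ± 5.55. Nid1, the link between laminin and type IV collagen, rose to 7.21 ± 1.45 with TTX and 6.91 ± 1.11 with Bic/4AP from 3.61 ± 1.09. Smoc1 rose with TTX to 3.39 ± 0.581 from 1.49 ± 0.229. Sparc, a collagen-binding protein, rose with Bic/4AP to 60 ± 7.94 from 41.5 ± 1.38. Against TTX, 10 fell (53.1% of all genes; 4 under all 3 scalings) and 1, Sparc, rose, a call not held under all 3 scalings.

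Of 18 tested receptor genes, 7 rose and 5 fell with TTX (40.6% and 23.5% of all genes), all under all 3 scalings, and 7 rose and 7 fell with Bic/4AP (29.6% and 42.5%), of which 7 and 6 held. The median relative log2 change was 0.024 with TTX, 0.28 with Bic/4AP and 0.12 in Bic/4AP against TTX. Integrin beta 1 (Itgb1), the shared subunit of the collagen and laminin integrins, rose to 39.6 ± 0.651 RPKM with TTX and 47.7 ± 2.08 with Bic/4AP from 33.3 ± 1.51. Dag1, which encodes dystroglycan, a laminin receptor, rose to 33.5 ± 0.83 with TTX from 23.5 ± 1.69, and Sdc3, a neuronal syndecan, to 60.8 ± 2.4 and, with Bic/4AP, 60.2 ± 2.3 from 40.2 ± 4.36. The laminin-binding alpha chain Itga7 fell to 1.42 ± 0.148 and 0.38 ± 0.161 from 16.5 ± 3.42, and the collagen-binding Itga10 to 0.35 ± 0.0581 and 0.0732 ± 0.0239 from 5.5 ± 0.92. In Bic/4AP against TTX 2 rose and 6 fell (23.7% and 53.1% of all genes; 1 and 4 under all 3 scalings). Itga3 fell to 3.27 ± 0.518 from 13.5 ± 1.17, the collagen receptor kinase Ddr1 to 3.78 ± 0.877 from 14.4 ± 1.21, and Sdc2 rose to 37.9 ± 0.972 from 28.9 ± 0.853.

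Of 15 tested matrix proteases and inhibitors, 8 rose and 1 fell with TTX (40.6% and 23.5% of all genes), of which 7 and 1 held under all 3 scalings. With Bic/4AP 7 rose and 4 fell (29.6% and 42.5% of all genes), of which 6 and 2 held. Their median relative log2 change was 0.38 with TTX, 0.42 with Bic/4AP and -0.069 in Bic/4AP against TTX. The membrane metalloproteinase genes Mmp15 and Mmp24 rose with TTX to 22 ± 0.929 from 11.1 ± 1.82 and 37.1 ± 0.525 from 21.3 ± 3.05 RPKM, and Mmp16 fell to 24.5 ± 0.704 from 34.1 ± 0.786. With Bic/4AP Adamts1, a metalloproteinase of proteoglycans, rose to 35.7 ± 3.32 from 19.8 ± 0.022, and Mmp17 fell to 9.78 ± 0.117 from 27.3 ± 3.22. Timp2, an inhibitor of metalloproteinases, was higher at 101 ± 0.694 against 68.8 ± 4.31, a call that did not hold under all 3 scalings. Against TTX 4 rose and 8 fell (23.7% and 53.1% of all genes; 2 and 6 under all 3 scalings), with Adamts1 at 35.7 ± 3.32 against 19.2 ± 0.94 and Mmp15 at 9.6 ± 0.552 against 22 ± 0.929.

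Methylation around the start sites was measured in 1 library per treatment, as the mean level of CpGs within 1 kb, for 38 of the 54 genes with 5 or more CpGs. Coverage is not in the deposited values, so no interval or test is given. Levels under 0.1 were found at 12 of the genes with TTX, 11 untreated and 12 with Bic/4AP, where 48.9%, 49.1% and 49.1% of all genes had such levels. The median level of the 38 was 0.224, 0.218 and 0.201, above the medians of all genes at 0.105, 0.104 and 0.104. The start region shared by Col4a1 and Col4a2, which holds 149 CpGs, was at 0.0266 with TTX, 0.0352 untreated and 0.0331 with Bic/4AP. Col8a2, whose CpG-dense stretch is printed above, was at 0.146 with TTX, 0.132 untreated and 0.125 with Bic/4AP, and Col6a1, with 3 CpGs in its stretch, at 0.664 with TTX, 0.591 untreated and 0.636 with Bic/4AP. Col10a1 was at 0.67 with TTX, 0.698 untreated and 0.698 with Bic/4AP and Col3a1, whose stretch has no CpG, at 0.856 with TTX, 0.891 untreated and 0.813 with Bic/4AP over 9 CpGs. The order of these start regions, from the type IV pair through Col8a2, Col6a1 and Col10a1 to Col3a1, was the same in the 3 libraries. In untreated RNA, low and high start-site levels both occurred among well expressed genes, since Col19a1 (0.0307 untreated) and Col6a1 (0.591 untreated) each averaged about 19 RPKM there. Col6a1 averaged only 2.65 RPKM with TTX and 1.77 with Bic/4AP, and Col19a1 8.66 and 20.8. The RNA and the methylation come from separate cultures of different strains, and the untreated RNA held the choroid plexus markers given above.

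**Figure D4:**
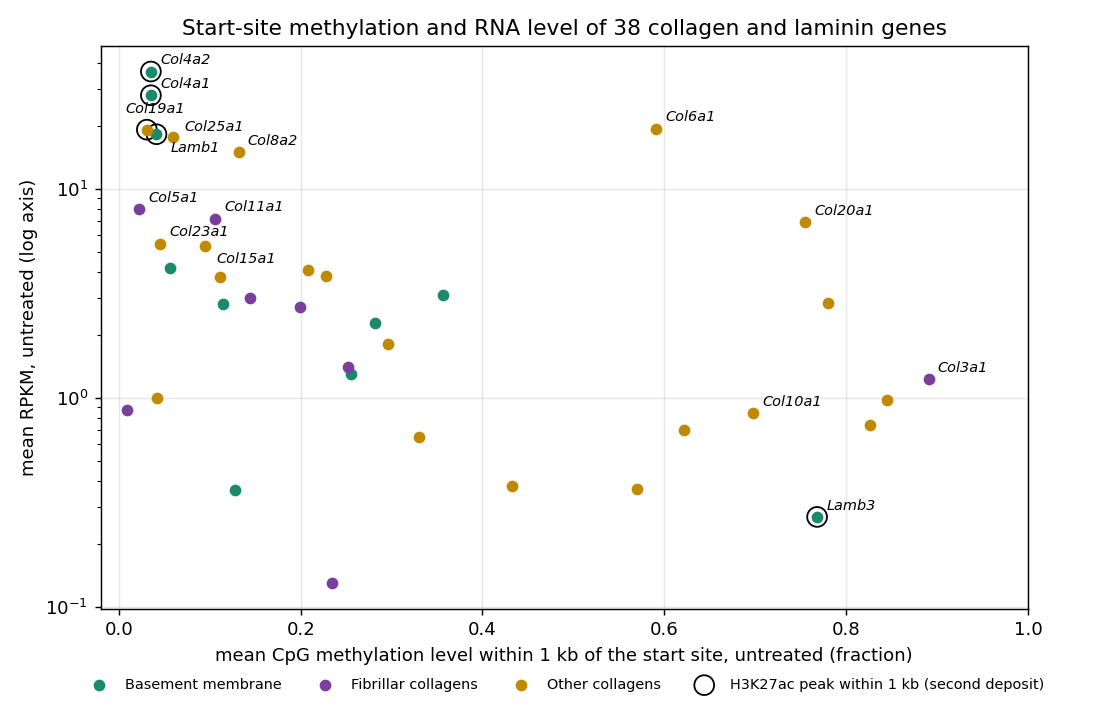
Mean CpG methylation level within 1 kb of the start site in the untreated bisulfite library (horizontal axis, fraction) against mean untreated RPKM (vertical log axis) for 38 genes coloured by class. Rings mark an H3K27ac peak within 1 kb of any start site of the gene in either list of the second deposit. This can be another start site than the one plotted. Col4a2 and Col4a1 lie at 0.0352 and the highest RPKM, Col6a1 and Col20a1 combine levels above 0.5 with more than 5 RPKM, and rings mark 5 genes.

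H3K27ac peaks near start sites were few among these genes. Peaks were counted within 1 kb of any listed start site of 39 genes. The first untreated list held a peak at 1 gene (9.83% of all genes) and the second at 3 (29.6%), and the first Bic/4AP list at 1 (21.2%) and the second at 4 (37.9%). The lists of the first deposit are much shorter (4846 and 7721 peaks) than those of the second (49701 and 55035), so lists are set side by side within a deposit only, and 2 lists per group allow no test. Lamb1 had a peak in both untreated lists and the second Bic/4AP list, and Col19a1 in the second untreated and both Bic/4AP lists. In the second deposit Lamb3 had a peak near a start site only in the untreated list, with an authors' score of 1492. Over its gene span that deposit held 18 peaks untreated and 12 with Bic/4AP. The start region shared by Col4a1 and Col4a2 had a peak only in the second Bic/4AP list, with an authors' score of 75, near the lowest score listed (50). No H3K4me1 peak lay within 1 kb of any listed start site of the 39 genes in either untreated list. Such peaks were rare over all genes too, at 1.13% of 16781 genes in each list. Over gene spans, 29 of the 54 genes had an H3K27ac peak in the second untreated list and 30 in the second Bic/4AP list. Col10a1, Col9a3, Col8a2 and Col6a1, with spans of 7.1 to 27.5 kb, had none in either, which says only that none was listed.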

How the data were processed

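RNA was measured in 9 libraries, 3 per group. Per the labels' protocols poly(A) RNA went into a directional library kit; the sources used here do not state whether counting used the strand. The deposited expression values are RPKM, 1 per gene and library. Per the submitters' processing notes, tools were MACS 1.4.1, TopHat, SAMtools 0.1.19 and Bowtie2 2.2.4, on mm10. The authors' peak lists give a score per peak, 50 or higher, and are per sample. Methylation was deposited as a fraction per CpG with no coverage, so its depth is unknown. The input sample was not used.

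Of 24062 lines, 4 with a repeated name were left out, which leaves 24058 genes. The 14801 genes that reached 1 RPKM in 3 or more libraries were tested on log2(RPKM + 1) by limma 3.58.1 (R 4.3.3, trend option), all 9 libraries in 1 fit and Benjamini-Hochberg adjustment over all genes. This scale understates changes of low genes. A call under all 3 scalings is one made in the same direction on the deposited values and after quantile and cyclic loess normalization. The fit was tested on simulated data. Library sizes were recovered from RPKM steps: the values of 19576 of 19588 genes came out whole within 0.1 of a read.

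Start sites and promoters came from RefSeq tables of GRCm38.p6 (39 of 54 genes had an entry). Where a gene has several start sites, that with the most measured CpGs was used for methylation, and a peak near any of them was counted. Listed CpG starts matched 24291 of 26513 C positions, counted from 1, in promoters of chromosome 11. Of the list genes, 7 were matched by an older symbol. Named genes are those with a group mean of 5 RPKM or more, those called with a log2 change of 1 or more and, for other lists, the 2 with the smallest p per direction and comparison; genes named beyond this rule were chosen after their values were seen. Not every gene is reported by name here. The genes and all lists were chosen with earlier results of these data known. Alternatives covered normalization, pseudocount, filters, a fit of 6 libraries, a replicate block, leaving out each library, and windows and thresholds of peaks and methylation.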

Additional observations from a re-analysis of the deposited data

How the results depend on the processing

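The counts of genes called lower and higher in Bic/4AP against untreated (26 and 4) became 19 and 14 after quantile and 19 and 11 after loess normalization, and those in Bic/4AP against TTX (16 and 5) became 6 and 11, and 5 and 14. TTX against untreated gave 24 lower and 7 higher, 24 and 8 after quantile and 24 and 7 after loess normalization. Over all genes the higher and lower calls moved from 4376 and 6297 to 5741 and 4568 (quantile) in Bic/4AP against untreated, from 6008 and 3483 to 4553 and 5241 (loess) in TTX against untreated and from 3508 and 7861 to 4986 and 5351 (quantile) in Bic/4AP against TTX. A filter of 5 RPKM left 16 of the genes, with 11 lower and 2 higher in Bic/4AP against untreated, 12 and 2 in TTX against untreated and 7 and 3 in Bic/4AP against TTX. Leaving out each library in turn gave 24 to 26 lower and 3 to 4 higher, 23 to 24 and 6 to 8, and 13 to 18 and 4 to 5 in the same order. Same-numbered libraries correlated at -0.17 to 0.04 in their deviations from the group means, so the numbers were not taken to pair libraries. A fit with the replicate block gave the same counts, 26 lower and 4 higher, 24 and 7, and 16 and 5, and changed no call of a gene.

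Of 720 single-gene values with a library left out, 673 kept direction and call, 18 lost a call, 5 gained one and 24 changed sign. Of 768 values under the other alternatives, 671 kept both, 28 lost a call, 24 gained one and 45 changed sign. Of the 69 sign changes, 47 were not called in either fit, 14 were called in the alternative alone and 8 in the deposited fit alone. 
After quantile normalization the log2 change took the other sign in Bic/4AP against untreated for Col12a1 (0.49), Col14a1 (0.047), Col18a1 (0.49), Col1a2 (0.0695), Col22a1 (0.49), Col26a1 (0.63), Col4a5 (0.46), Col5a2 (0.073), Lamc1 (0.062), Lamc3 (0.40). After quantile normalization the log2 change took the other sign in TTX against untreated for Col28a1 (0.17), Lamb1 (-0.065). After quantile normalization the log2 change took the other sign in Bic/4AP against TTX for Col11a2 (0.11), Col12a1 (0.47), Col14a1 (0.18), Col16a1 (0.043), Col22a1 (0.20), Col3a1 (0.36), Col4a2 (0.066), Col4a5 (0.22), Col5a2 (0.60), Col6a1 (0.055), Col7a1 (0.039). After cyclic loess normalization the log2 change took the other sign in Bic/4AP against untreated for Col12a1 (0.30), Col18a1 (0.30), Col22a1 (0.36), Col26a1 (0.50), Col4a5 (0.29), Lamc1 (0.11), Lamc3 (0.20). After cyclic loess normalization the log2 change took the other sign in TTX against untreated for Col12a1 (-0.19), Col1a2 (-0.041), Lamb1 (-0.15). After cyclic loess normalization the log2 change took the other sign in Bic/4AP against TTX for Col11a2 (0.096), Col12a1 (0.50), Col14a1 (0.14), Col16a1 (0.14), Col1a2 (0.0021), Col22a1 (0.18), Col3a1 (0.28), Col4a5 (0.22), Col5a1 (0.046), Col5a2 (0.72), Col6a1 (0.38). With a pseudocount of 0.1 the log2 change took the other sign in Bic/4AP against TTX for Col9a3 (-0.0501). Leaving out each library in turn gave log2 changes on both sides of 0 in Bic/4AP against untreated for uncalled genes: Col22a1 -0.12 to 0.044, Col26a1 -0.098 to 0.088, Lama2 -0.024 to 0.15. Leaving out each library in turn gave log2 changes on both sides of 0 in TTX against untreated for uncalled genes: Col12a1 -0.0497 to 0.15, Col1a2 -0.066 to 0.12, Col28a1 -0.24 to 0.13. Leaving out each library in turn gave log2 changes on both sides of 0 in Bic/4AP against TTX for uncalled genes: Col11a1 -0.11 to 0.37, Col11a2 -0.047 to 0.0092, Col14a1 -0.18 to 0.0025, Col5a3 -0.035 to 0.14, Col9a3 -0.097 to 0.17, Lamc1 -0.028 to 0.16. The cause of these changes was not tested.

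With the start site inside the peak, 0 genes had an H3K27ac peak in the first untreated (2.56% of all genes) and the first Bic/4AP list (12.5%). In the second deposit 2 had one untreated (21.1%) and 2 with Bic/4AP (29.9%). Within 2.5 kb the first deposit held 1 untreated (10.4%) and 1 with Bic/4AP (22%), and the second 3 (31.3%) and 5 (39.5%). With a score of 100 or higher, the first deposit held 0 untreated (3.13%) and 0 with Bic/4AP (10.6%). The second held 3 untreated (24.3%) and 2 with Bic/4AP (33.8%). Low methylation counted under 0.2 was found at 17 genes with TTX, 18 untreated and 19 with Bic/4AP (61.4%, 61.6% and 61.4% of all genes), and within 500 bases at 17, 20 and 20 (65.3%, 65.6% and 65.6%).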

Other observations

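Peaks of H3K27ac over whole gene spans are given for a few genes as a description of the second deposit; a longer span holds more peaks, and the share of all genes with such a peak was not computed. Summed over the 54 genes the lists differed little, with 159 peaks over 29 genes untreated and 153 over 30 genes with Bic/4AP. Col19a1 held 18 peaks untreated and 16 with Bic/4AP, Col25a1 13 and 19, and Lama2 16 and 16. Col15a1 held 9 untreated and 0 with Bic/4AP, and Col22a1 8 and 17. Col15a1 RNA fell with Bic/4AP, to 0.0983 ± 0.0274 from 5.29 ± 0.787 RPKM, and Col22a1 RNA did not pass the limma test (adjusted p = 0.832). A link between peaks and RNA was not tested. For the type IV pair the spans held 4 and 8 peaks at Col4a2 and 2 and 5 at Col4a1, although their RNA was lower with Bic/4AP. With 1 list per group in a deposit these differences have no test, and a peak over a gene span can belong to a gene inside or beside it. These genes were picked after their values were seen.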
